A study of Homo sapiens and Mus musculus with 17 samples.

Results

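The proteasome genes described here were all genes whose symbol, in capitals, is PSM followed by a letter from A to G and a number, together with POMP. They were chosen by name and not by any measured value. This gave 49 of 62714 genes in the human table and 49 of 55491 genes in the mouse table, and symbols with further letters (such as PSMC3IP) were left out. RNA-seq was performed on HEK293T cells, a human embryonic kidney line, and on brown adipose tissue (BAT) of 12-week-old C57BL/6J mice. The cell cultures were 3 WT, 3 HRD1 KO and 3 SEL1L KO, where the KO lines were made with CRISPR/Cas9 and the WT cells had received the plasmid without a guide. The sources used here do not give whether each KO line is 1 clone. The tissues were 3 from WT mice, 2 from Hrd1 flox/flox;Ucp1-Cre mice (Hrd1 KO) and 3 from Sel1l flox/flox;Ucp1-Cre mice (Sel1L KO). The Ucp1 promoter drives Cre in brown adipocytes, so the other cells of the tissue kept both genes. HRD1 (gene SYVN1) is the ubiquitin ligase, and SEL1L its partner, of a complex that marks misfolded proteins of the endoplasmic reticulum for degradation (ERAD).

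The proteasome is the protease that degrades proteins tagged with ubiquitin, including those delivered by ERAD. Its 20S core is a barrel of alpha rings (PSMA) around beta rings (PSMB), and the beta subunits PSMB5, PSMB6 and PSMB7 carry the active sites. The 19S cap, made of ATPases (PSMC) and non-ATPase subunits (most of the PSMD genes), recognises, unfolds and feeds in the substrate, and core plus cap form the 26S particle. In immune cells and after interferon, PSMB8, PSMB9 and PSMB10 take the places of PSMB5, PSMB6 and PSMB7 and form the immunoproteasome, which favours peptides for display on MHC class I. PSME1 and PSME2 (PA28 alpha and beta), PSME3 (PA28 gamma) and PSME4 (PA200) are alternative caps, PSMF1 (PI31) inhibits the core in vitro, and POMP with PSMG1 to PSMG4 assemble it. PSMD5, PSMD9 and PSMD10 are chaperones of the base of the cap rather than subunits. In brown adipocytes, proteasome genes are known targets of the transcription factor NRF1 (gene NFE2L1), a protein that itself passes through ERAD.

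Levels are given as FPKM (fragments scaled to transcript length and to library size). Since FPKM is per length, genes can be compared within a table. Unless it is named as deposited, FPKM was scaled by the median ratio of each library to the others. Of the 49 genes, 44 passed the filter on low values in HEK293T cells (FPKM of at least 1 in 3 libraries) and 47 passed it in BAT (in 2 libraries). The targeted genes only partly followed the labels. SEL1L had deposited FPKM of 4.39, 8.74 and 12.85 in WT cells, all above the 1.82, 3.36 and 2.59 of the cultures labelled SEL1L KO. For SYVN1 the deposited values were 16.95, 16.7 and 16.92 among WT cultures and 22.47, 18.48 and 19.83 among those labelled HRD1 KO, none of them below WT. In BAT, the WT tissues had deposited Syvn1 values of 5.37, 5.65 and 5.2, and the tissues labelled Hrd1 KO 14.05 and 13.77. For Sel1l the WT tissues had 9.1, 12.88 and 10.26, and the tissues labelled Sel1L KO 25.2, 8.17 and 8.38. FPKM of a whole gene does not show which exons are left, so these levels neither establish nor contradict a deletion, and group names below are those of the labels.

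Some libraries stood apart before any comparison. In BAT, the summed FPKM of 5 skeletal muscle genes was 1.12, 2.02 and 0.358 in WT, 203 and 7.15 in Hrd1 KO, and 52.7, 2.63 and 0.504 in Sel1L KO. None of the 5 was at 0 in every library. The first Sel1L KO library also held Ppargc1a at 441 and Dio2 at 326 FPKM, against 3.54 to 13.8 and 4.02 to 45.9 in the other 7 BAT libraries. The sum of 8 brown adipocyte markers (Ucp1, Cidea, Fabp4 and others) was 28144, 26158 and 23472 in WT, 13312 and 18786 in Hrd1 KO, and 25852, 17794 and 18147 in Sel1L KO. For the main BAT results, values without the first Sel1L KO library or without an Hrd1 KO library are therefore given as well. In bulk tissue, fewer cells of a type and less RNA per cell cannot be told apart. In HEK293T cells the 4 immune markers summed to 0.150 to 1.61 FPKM, with PTPRC at 0 in every library. Nothing in the labels ties a number to a separate culture, so p-values there measure the spread between these samples, which may be technical.

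In WT cells of both kinds the core subunits were among the most abundant members. In HEK293T cells the highest were PSMB1 at 460 ± 67.9 FPKM (SD, n = 3), the alpha subunit PSMA4 at 448 ± 106 and PSMB4 at 380 ± 54.8, and these means lay within their SDs of each other or close to it. The lowest of the 44 tested were PSME4 at 21.4 ± 0.80, PSMG2 at 30.9 ± 5.37 and PSMB10 at 34.1 ± 6.14. In BAT the highest were Psmb5 at 185 ± 2.65, Psmb2 at 167 ± 13.2 and Psmb6 at 162 ± 4.72, and the lowest of the 47 were Psmf1 at 4.99 ± 0.764, Psmb9 at 6.47 ± 1.23 and Psmd5 at 7.54 ± 1.10. In BAT the libraries of Psmb2 overlapped with those of Psmb5 and of Psmb6, while all 3 of Psmb5 lay above all 3 of Psmb6, and neighbours at the low end overlapped.

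**Figure D1:**
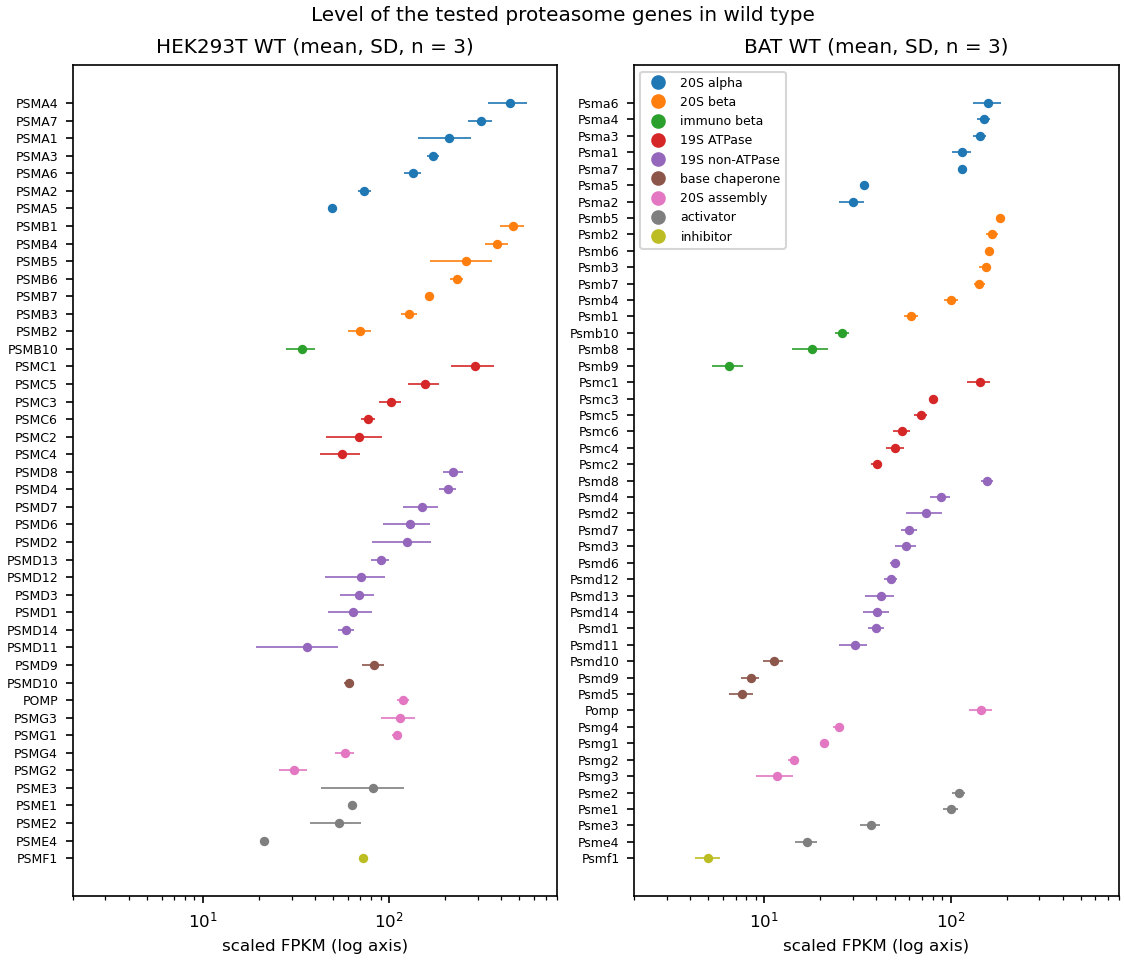
Mean level of every tested proteasome gene in the 3 WT cultures of HEK293T (44 genes) and the 3 WT BAT samples (47 genes), as scaled FPKM on a log axis, with SD bars and colours for the roles. Levels run from PSME4 at 21.4 to PSMB1 at 460 in the cells and from Psmf1 at 4.99 to Psmb5 at 185 in the tissue.

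The members that did not pass the filter included genes of other tissues. PSMA8, an alpha subunit of the testis, was at 0 to 0.125 FPKM in HEK293T cells and its mouse counterpart at 0 to 0.154 in BAT. PSMB11, the beta subunit of the thymus, was at 0 in all but 1 HEK293T library (0.110) and Psmb11 was listed at 0 in all 8 BAT libraries. PSMB8 was at 0 to 0.146 in HEK293T cells. PSMB9 was at 1.26, 0.722 and 0.173 in WT, 0.856, 0.526 and 0 in HRD1 KO and 0.751, 2.34 and 0.601 in SEL1L KO, with overlapping groups. PSMD5 was at 0.0285 to 0.655 in all 9 HEK293T libraries, while the other chaperones of the base, PSMD9 and PSMD10, were at 71.3 to 96.4 and 50.7 to 79.0. In BAT Psmd5 passed the filter, with 6.41 to 8.78 FPKM over the 8 libraries. In these HEK293T cells, PSMB10 was thus the only immunoproteasome subunit that could be tested.

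Some levels depend on how reads were shared between genes with similar sequence. Of the 31-base words of PSMC1 transcripts in the annotation, 86.1% also occurred in another gene (mostly NRDE2), and of those of Psmb5, 71.7%, mostly in Gm3375, whose deposited FPKM was at most 12.2. For Psma5 the share was 61.0%, for PSMB10 34.0% and for Psme2 33.5%, the last with Psme2b, whose deposited FPKM was at most 28.9, and these levels are uncertain to that extent. For Psma4 it was 21.8%, for Psmb3 21.7%, for Psmb8 13.7% and for Psmb9 4.79%.

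Human promoter windows were searched for TGACNNNGC, the core of the antioxidant response element that NRF1 and NRF2 bind, on either strand. The windows, from RefSeq on GRCh38.p14, run from 250 bases before to 50 bases after a gene's start. They were found for 43 of the 49 human members, and PSMA7, PSMB1, PSMB6, PSMB7, PSMD4 and PSMG3 have none. The motif was in at least 1 window of 15 of the 43 genes (34.9%), against 4384 of all 27305 genes (16.1%). Counted by window, 28.8% of 52 member windows and 13.3% of all 35116 held it. It was in 3 of 4 activators, 2 of 6 ATPases and 3 of 10 non-ATPases with a window. Of the core, it was in 1 of 7 alpha subunits (14.3%, PSMA8 among the 7). It was in 1 of 5 beta subunits outside the immunoproteasome (20%, PSMB11 among the 5). Both core shares were near the 16.1% of all genes. The rest were 2 of 4 assembly factors, 2 of 3 base chaperones, 1 of 3 immunoproteasome genes and 0 of 1 inhibitor. Such a match is a description of letters and does not show binding. The 4 windows printed here run 5′ to 3′ on the strand of the gene, with the motif in capitals. They belong to the core subunits PSMA4 and PSMB3 and to 2 immunoproteasome genes. The mouse counterparts of PSMA4 and PSMB3 were among the 4 members with the lowest p-values in Hrd1 KO tissue. The other genes of those 4 were Psmb1 and Psmd6, where PSMB1 has no human window and the PSMD6 window held no match. Of 3 PSMA4 windows the one printed, the only one of them with a match, is chr15:78540536-78540835 (plus strand), with the motif 126 bases before the start. The PSMB3 window is chr17:38752491-38752790 (plus), with the motif 104 bases before the start. The PSMB9 window is chr6:32853942-32854241 (plus), with the motif on the opposite strand, 148 bases before the start, and the PSMB10 window is chr16:67936801-67937100 (minus), with no match.
PSMA4: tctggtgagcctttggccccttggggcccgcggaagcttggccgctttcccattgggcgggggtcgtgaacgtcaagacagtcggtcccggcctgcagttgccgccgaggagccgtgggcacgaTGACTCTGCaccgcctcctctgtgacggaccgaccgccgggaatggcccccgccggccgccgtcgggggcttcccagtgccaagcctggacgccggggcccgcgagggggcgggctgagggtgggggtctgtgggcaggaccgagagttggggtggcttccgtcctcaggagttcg
PSMB3: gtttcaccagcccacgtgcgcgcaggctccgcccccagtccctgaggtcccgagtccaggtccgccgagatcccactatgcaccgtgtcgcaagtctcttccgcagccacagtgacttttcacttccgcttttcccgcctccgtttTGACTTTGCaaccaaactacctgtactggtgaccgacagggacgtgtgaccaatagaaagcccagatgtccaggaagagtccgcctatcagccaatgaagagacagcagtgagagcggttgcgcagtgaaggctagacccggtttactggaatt
PSMB9: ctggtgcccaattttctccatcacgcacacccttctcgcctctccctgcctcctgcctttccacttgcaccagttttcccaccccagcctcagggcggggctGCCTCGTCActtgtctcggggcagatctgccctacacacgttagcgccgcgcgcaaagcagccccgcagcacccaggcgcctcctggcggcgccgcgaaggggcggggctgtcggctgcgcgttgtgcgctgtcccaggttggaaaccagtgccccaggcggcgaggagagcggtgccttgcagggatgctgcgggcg
PSMB10: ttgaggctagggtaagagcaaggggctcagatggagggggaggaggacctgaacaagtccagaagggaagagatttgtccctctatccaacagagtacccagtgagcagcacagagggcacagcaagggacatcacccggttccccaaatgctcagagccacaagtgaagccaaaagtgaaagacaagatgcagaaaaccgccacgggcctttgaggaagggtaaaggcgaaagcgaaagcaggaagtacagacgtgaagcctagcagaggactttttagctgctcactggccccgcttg

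The first question in BAT was whether immunoproteasome genes differed between KO and WT tissue. Psmb8 and Psmb9 are neighbours in the MHC region (GRCm38 chr17:34197721-34201454 and chr17:34181987-34187764). Both were higher in every KO library of both genotypes than in every WT library, but neither was called. Taken by genotype, 22.8% of all genes lay above WT in this way in Hrd1 KO and 13.2% in Sel1L KO. The share for both genotypes at once was not counted. Psmb8, which replaces Psmb5, was at 16.5, 22.4 and 15.1 FPKM in WT, 32.3 and 36.3 in Hrd1 KO, and 304.3, 64.4 and 33.4 in Sel1L KO. Psmb9, which replaces Psmb6, was at 6.53, 7.67 and 5.21 in WT, 11.3 and 13.2 in Hrd1 KO, and 105.5, 15.7 and 9.96 in Sel1L KO. Psmb10, which replaces Psmb7, was at 24.3, 28.8 and 25.6 in WT, 23.0 and 32.5 in Hrd1 KO, and 71.7, 38.8 and 28.3 in Sel1L KO, so its groups overlapped. The first Sel1L KO library was the highest of all 8 for each of the 3 genes.

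In the limma fit over all 12473 tested genes, the log2 fold change of Psmb8 in Sel1L KO against WT was 2.28 (SE 0.69, adjusted p = 0.169), that of Psmb9 1.98 (SE 0.75, adjusted p = 0.248) and that of Psmb10 0.71 (SE 0.32, adjusted p = 0.321). Without the first Sel1L KO library the values were 1.37 for Psmb8 (adjusted p = 0.0524), 0.95 for Psmb9 (adjusted p = 0.0838) and 0.33 for Psmb10 (adjusted p = 0.392). Thus the size of the difference rested in large part on 1 library, while Psmb8 and Psmb9 were above WT in the other 2 as well. In Hrd1 KO against WT the log2 fold changes were 0.94 for Psmb8, 0.92 for Psmb9 and 0.06 for Psmb10, with overlapping groups for the last. Both comparisons use the same 3 WT samples.

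The ratio of each of the 3 genes to the subunit that it replaces was taken within each library, and so is free of the scaling between libraries. Each of these ratios was higher in every KO library than in any WT library. The ratio of Psmb8 to Psmb5 was 8.86%, 12.0% and 8.33% in WT, 26.4% and 22.8% in Hrd1 KO, and 119%, 34.9% and 20.9% in Sel1L KO. The ratio of Psmb9 to Psmb6 was 4.04%, 4.61% and 3.32% in WT, 9.04% and 7.65% in Hrd1 KO, and 46.8%, 9.42% and 6.02% in Sel1L KO. The ratio of Psmb10 to Psmb7 was 16.0%, 19.99% and 19.3% in WT, 27.2% and 28.001% in Hrd1 KO, and 52.0%, 31.4% and 25.5% in Sel1L KO. For Psmb10 the ratio separated Hrd1 KO from WT although its own level did not. A ratio also rises where the constitutive subunit is lower. Psmb7 had a mean of 100 FPKM in Hrd1 KO against 143 in WT, and Psmb5 141 against 185. How many other gene pairs separate in this way was not counted. These ratios are given as a description, without a test.

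**Figure D2:**
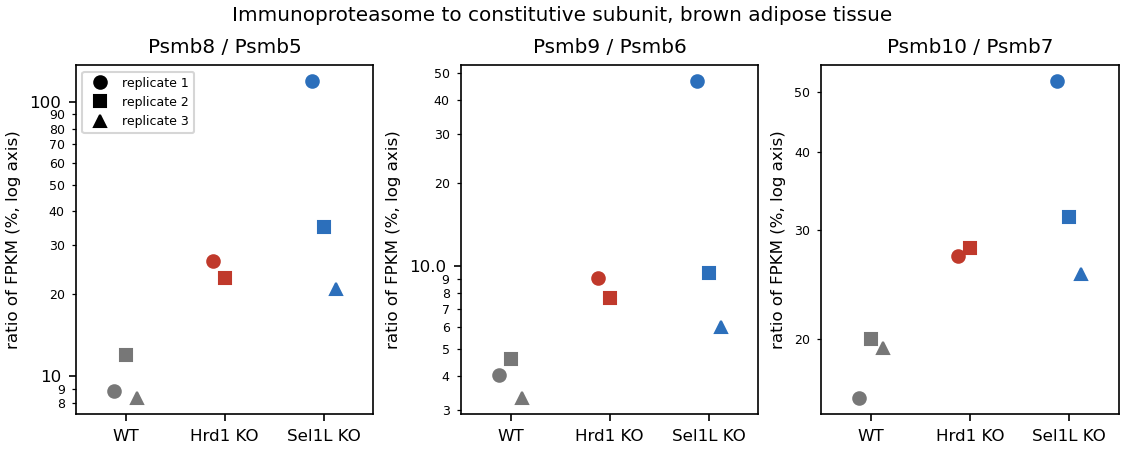
Ratio of each immunoproteasome subunit to the constitutive subunit it replaces in the 8 BAT libraries, in percent on a log axis, where each point is 1 library and its shape the replicate. All 5 KO libraries lie above the 3 WT libraries in each panel, and the first Sel1L KO library is highest, with 119% for Psmb8 to Psmb5.

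Immune cell markers and interferon genes were examined beside these genes. The sum of 8 immune cell markers was 25.6, 24.98 and 20.1 FPKM in WT, 34.1 and 34.3 in Hrd1 KO, and 67.2, 41.8 and 47.6 in Sel1L KO. Most of it was the macrophage gene Lyz2, which spanned 12.9 to 18.7 (WT), 23.03 to 26.2 (Hrd1 KO) and 31.2 to 51.8 (Sel1L KO), and no marker was at 0 in every library. Of 18 interferon and antigen presentation genes, 17 were tested and none was called in either KO. Their median log2 fold change was 0.52 in Hrd1 KO, where 1 passed an unadjusted p under 0.05 as higher (8.01% of all genes did), and 1.21 in Sel1L KO, where 8 did (8.81% of all genes). Without the first Sel1L KO library the Sel1L KO median was 0.42, and 7 passed (10.3% of all genes), while in Hrd1 KO 8 then passed (14.0%). B2m, the light chain of MHC class I, was at 289, 390 and 274 FPKM in WT, 440 and 462 in Hrd1 KO, and 1428, 639 and 503 in Sel1L KO (log2 fold change 1.299 in Sel1L KO, adjusted p = 0.145, and 0.85 without its first library, adjusted p = 0.0627). Stat2, which carries the interferon signal to the nucleus, had a log2 fold change of 1.47 in Hrd1 KO (adjusted p = 0.137). The sum of immune cell markers was highest in the first Sel1L KO library, as were Psmb8, Psmb9 and Psmb10. Like Psmb8 and Psmb9, the sum was higher in every KO library than in every WT library. From the second to the third Sel1L KO library the sum rose, while Psmb8, Psmb9 and Psmb10 were lower. The part of immune cells in the Psmb8, Psmb9 and Psmb10 values was not tested.

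The constitutive subunits were lower on the scaled level in Hrd1 KO tissue, with small differences and no call. Psma4, an alpha subunit, was at 164.5, 146.5 and 141.2 FPKM in WT and 81.0 and 101.2 in Hrd1 KO, so the groups did not overlap (log2 fold change −0.73, SE 0.17, adjusted p = 0.0856). The beta subunit Psmb1 was at 65.5, 63.7 and 55.4 in WT and 32.8 and 45.1 in Hrd1 KO (−0.67, SE 0.21, adjusted p = 0.148). The beta subunit Psmb3 was at 160.0, 161.5 and 141.0 against 83.7 and 117.1 (−0.64, SE 0.20, adjusted p = 0.153). Psmd6, a subunit of the lid of the cap, was at 54.0, 48.4 and 48.7 against 32.6 and 35.7 (−0.56, SE 0.18, adjusted p = 0.166). In all 4 genes both Hrd1 KO libraries lay below the 3 WT libraries, the first one lowest. Without that first library the log2 fold changes were −0.56 for Psma4 (adjusted p = 0.339), −0.44 for Psmb1 (adjusted p = 0.527), −0.38 for Psmb3 (adjusted p = 0.533) and −0.48 for Psmd6 (adjusted p = 0.489), and without the second they were −0.90, −0.90, −0.88 and −0.63. The values of Psmb1 and Psmb3 thus depended on 1 library.

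At an adjusted p under 0.01, 0 of 47 members were called in Hrd1 KO against WT by limma, against 0% of all genes as higher and 0.0401% as lower. At an unadjusted p under 0.05, 9 of the 47 (19.1%) were lower and 0 higher, where 10.1% of all genes were lower and 8.01% higher. The 9 included the assembly factor Pomp, the ATPase assembly chaperone Psmd10 and the active-site subunit Psmb7. Both Hrd1 KO libraries were below all 3 WT libraries for 30 of the 47 members, against 22.2% of all genes, and above them for 2, Psmb8 and Psmb9, against 22.8% of all genes. The median log2 fold change of the 47 was −0.38, with 41 below 0 (87.2%), where the median of all genes was 0.01 with 49.4% below 0.

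The direction of this family depended on the scaling. With the deposited FPKM left unscaled, the median of all genes was 0.42 in Hrd1 KO against WT, that of the members was 0.04, and 19 of 47 members were below 0. At an unadjusted p under 0.05, 1 member was then lower and 3 were higher, against 2.02% and 25.4% of all genes. With quantile normalization the members' median was −0.20, with 37 below 0 and 7 passing as lower (8.71% of all genes did). The members' median thus lay under that of all genes under each of the 3, but it was below 0 only with scaling or quantiles. The difference also depended on single libraries. Without the first Hrd1 KO library, the one with the most muscle RNA, the median was −0.20, 35 were below 0 and 2 (4.26%) passed the unadjusted p as lower, against 6.36% of all genes. Without the second Hrd1 KO library it was −0.50 and 10 (21.3%) passed, against 10.3%. Without the first Sel1L KO library, which enters this comparison through the shared variance and the scaling, the median stayed at −0.38. However, 24 members then passed as lower (51.1%, against 15.6% of all genes) and 2 as higher (4.26%, against 14.0%). The smallest adjusted p by limma was then 0.0213, for Psma4, still above 0.01. With only the WT and Hrd1 KO libraries in the fit, 20 members were lower (42.6%, against 13.6% of all genes) and 2 higher (4.26%, against 12.6%). The sum of brown adipocyte markers was below WT in both Hrd1 KO libraries and the muscle sum above WT in both, and the part of either in these values was not tested.

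By role, on the scaled level, the alpha subunits had the lowest median in Hrd1 KO, −0.55, and all 7 lay below every WT library. Of all tested genes, 22.2% lay below every WT library in this way. The 7 constitutive beta subunits had a median of −0.41 (5 without overlap), the 6 ATPases −0.32 (4 without overlap) and the 11 non-ATPases −0.41 (8 without overlap). Together, 30 of these 31 subunits of the 26S particle had a negative log2 fold change, and Psmc4 was the exception at 0.05. Of the active-site subunits, Psmb5 was at 186.0, 186.9 and 181.9 in WT against 122.3 and 159.2, Psmb7 at 151.5, 144.0 and 132.5 against 84.5 and 115.9, and Psmb6 at 161.8, 166.4 and 157.0 against 124.9 and 172.4. Only Psmb6 of these overlapped with WT, and its log2 fold change of −0.14 turned to 0.28 without scaling and 0.14 with quantiles. The 4 activators had a median of −0.28, with Psme1 at 93.1, 110.2 and 97.4 in WT against 81.6 and 95.4 and Psme2 at 104.7, 121.5 and 106.9 against 67.8 and 98.7. Pomp, the maturation factor of the core, was at 163.7, 151.5 and 124.2 against 95.6 and 93.4 (−0.62, SE 0.21, adjusted p = 0.177). The inhibitor Psmf1 was at 5.14, 5.67 and 4.16 in WT and 5.52 and 6.53 in Hrd1 KO, with a log2 fold change of 0.27.

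**Figure D3:**
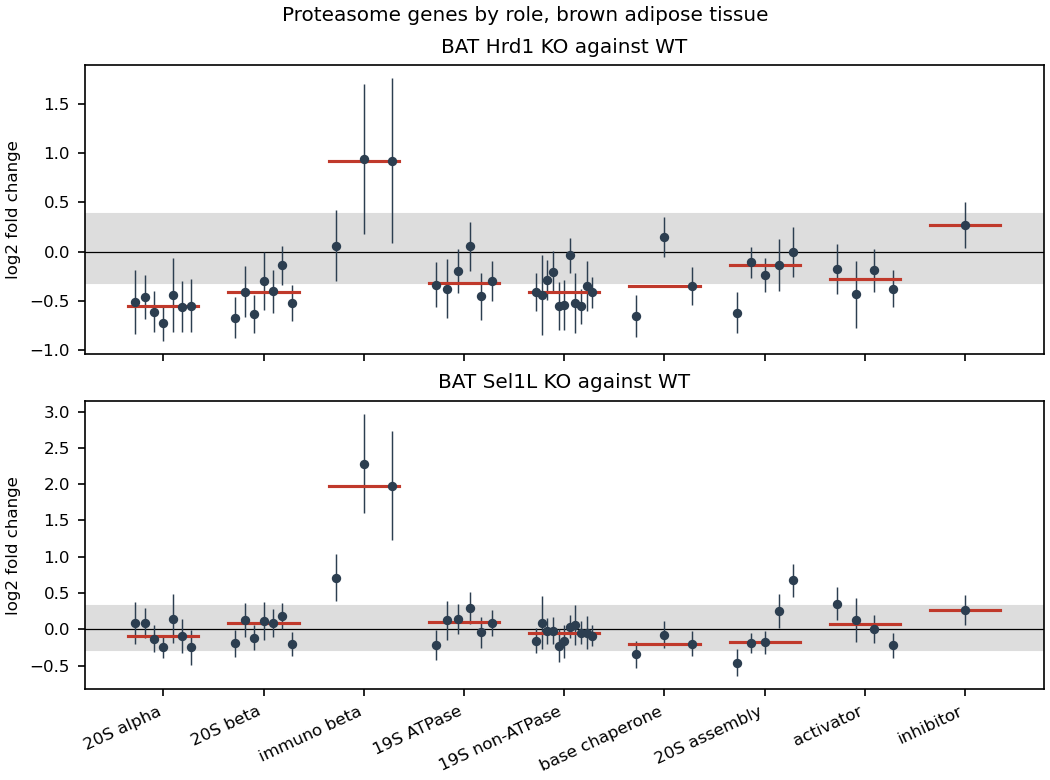
Log2 fold change with SE for each of the 47 tested proteasome genes in BAT, Hrd1 KO against WT (top) and Sel1L KO against WT (bottom), by role, with a red line for each role's median and a grey band for the range from the lower to the upper quartile of all tested genes. The roles' medians run from −0.55 (alpha) to 0.92 (immunoproteasome) in Hrd1 KO and from −0.20 (base chaperones) to 1.98 (immunoproteasome) in Sel1L KO.

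In Sel1L KO tissue the constitutive subunits showed no common direction. The 47 members had a median log2 fold change of −0.02, with 24 below 0, and the 31 subunits of the 26S particle had the same median, with 17 below 0. At an adjusted p under 0.01, 0 members were called by limma, against 0% of all genes as higher and 0.00802% as lower. At an unadjusted p under 0.05, 3 were higher (Psmb8, Psmb9 and Psmg4), against 8.81% of all genes, and 1 was lower (Pomp), against 7.80%. These 3 genes were also those whose 3 KO libraries all lay above WT, against 13.2% of all genes. Psmg4, a chaperone of the alpha ring, was at 23.4, 26.9 and 25.03 FPKM in WT and 57.2, 37.2 and 30.3 in Sel1L KO (0.68, SE 0.23, adjusted p = 0.209; 0.42 without the first Sel1L KO library, adjusted p = 0.163). Pomp was at 131.4, 105.6 and 85.4 in Sel1L KO, overlapping WT (−0.46, SE 0.19, adjusted p = 0.277; −0.62 without that library, adjusted p = 0.0879).

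The Sel1L KO libraries themselves differed. Relative to the WT mean, the median of the 31 subunits was 0.36 in the first and −0.20 and −0.24 in the others, while it was 0.13, −0.04 and −0.10 in WT and −0.60 and −0.28 in Hrd1 KO. Psma1, an alpha subunit, showed the split, at 201.3 in the first and 93.8 and 97.2 in the others, against 128.9, 115.9 and 101.5 in WT, and was picked here after its values were seen. Without the first library the members' median in Sel1L KO against WT was −0.20, with 37 of 47 below 0, and 8 passed an unadjusted p under 0.05 as lower (17.02%, against 10.1% of all genes). For Psmb5 the log2 fold change ranged from −0.11 to 0.23, and for Psme2 from −0.24 to 0.35, as single libraries were left out.

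**Figure D4:**
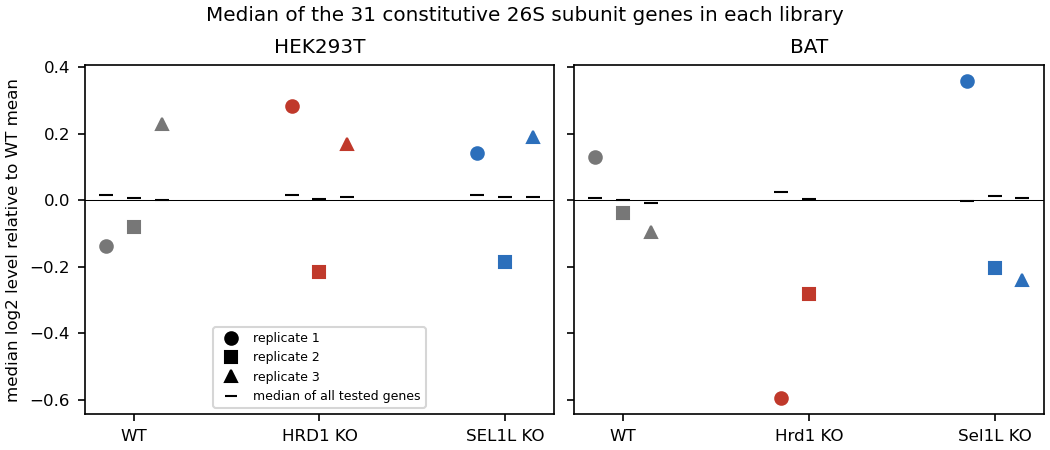
Median log2 level of the 31 constitutive genes of the 26S particle in each library relative to the mean of its WT group, for HEK293T (9 libraries) and BAT (8 libraries), with a dash for the median of all tested genes in the same library. The BAT values span −0.60 in the first Hrd1 KO library to 0.36 in the first Sel1L KO library, while the HEK293T groups overlap between −0.22 and 0.28.

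Comparing the KO tissues directly, no member was called (0 of 47 by limma at an adjusted p under 0.01, against 0.00802% of all genes as higher and 0.0321% as lower in Hrd1 KO). At an unadjusted p under 0.05, 7 members were lower in Hrd1 KO than in Sel1L KO and 0 higher, against 5.51% and 4.84% of all genes. The lowest p-values were those of Psma4 (log2 fold change −0.49, adjusted p = 0.426), Psmd6 (−0.51, adjusted p = 0.427), Psmg4 (−0.68, adjusted p = 0.447) and Psmb3 (−0.52, adjusted p = 0.450). Psmb3 was at −0.27 and Psma4 at −0.33 without the first Hrd1 KO library, and Psmg4 at −0.43 without the first Sel1L KO library. Both Hrd1 KO libraries lay below all 3 Sel1L KO libraries for 16 of 47, against 14.7% of all genes. The members' median was −0.39, with 44 below 0 (93.6%, against 52.1% of all genes), and it was −0.05 without scaling, where that of all genes was 0.30. Without scaling 0 members were lower and 2 higher at an unadjusted p under 0.05 (1.18% and 15.5% of all genes), and with only these 2 groups in the fit 0 passed in either direction (2.67% lower and 3.24% higher). Without the first Sel1L KO library the median was −0.19 and 3 members (6.38%) passed the unadjusted p as lower, against 7.20% of all genes, and without the first Hrd1 KO library it was −0.20 and 0 passed, against 3.85%. This comparison uses the same KO samples as the ones above and is no separate evidence.

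In HEK293T cells no proteasome gene was called in either KO, and only PSMB10 in SEL1L KO had groups that did not overlap. In HRD1 KO against WT, 0 of 44 members were called by limma at an adjusted p under 0.05, against 0.0570% of the 15796 tested genes as higher and 0% as lower. At an unadjusted p under 0.05, 0 members passed, against 1.12% of all genes as higher and 0.950% as lower. The members' median log2 fold change was 0.09, with 30 above 0, and it was 0.001 with quantile normalization. The lowest p-values belonged to PSMA4, at 473.0, 538.5 and 331.4 FPKM in WT and 656.5, 509.2 and 491.4 in HRD1 KO (0.32, SE 0.21), PSMA5 (0.25, SE 0.20), PSME2 (0.41, SE 0.38) and PSME1 (0.16, SE 0.17), all with an adjusted p of 1.00. The groups of each of these genes overlapped.

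In SEL1L KO against WT, 0 of 44 were called by limma, against 0.0317% of all genes as higher and 0% as lower, and 0 passed an unadjusted p under 0.05, against 0.867% and 0.614%. The median was 0.02 and it was −0.03 without scaling and −0.05 with quantiles. PSMB10 had the lowest p-value, at 27.2, 36.3 and 38.9 FPKM in WT and 43.98, 41.6 and 47.9 in SEL1L KO (0.40, SE 0.21, adjusted p = 1.00). It was the only member whose 3 KO libraries all lay above WT, against 3.44% of all genes. Its ratio to PSMB7, the subunit that it replaces, was 16.6%, 23.2% and 22.4% in WT, 20.8%, 19.6% and 21.9% in HRD1 KO and 24.6%, 30.0% and 26.5% in SEL1L KO, so that the SEL1L KO cultures again lay above the others. The next were PSMG3 (0.23), PSMA3 (0.20) and PSMA4 (0.23), all with overlapping groups.

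Between HRD1 KO and SEL1L KO cells, 0 members were called by limma, against 0% of all genes in either direction, and 0 passed an unadjusted p under 0.05, against 1.08% as higher and 1.29% as lower. The lowest p-values were those of PSMD10 (0.26), PSMB10 (−0.27), PSMD6 (−0.30) and PSMG4 (−0.28). POMP was at 109.2, 122.5 and 126.4 in WT, 115.4, 100.3 and 132.4 in HRD1 KO and 130.0, 98.0 and 173.8 in SEL1L KO, and PSMF1 at 75.8, 69.3 and 71.0, 79.4, 68.4 and 91.3, and 66.4, 73.6 and 86.7, with overlap throughout. The active-site subunits overlapped too, with PSMB5 between 195.7 and 369.0 for WT, 189.5 and 325.6 for HRD1 KO, and 204.7 and 361.7 for SEL1L KO.

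Deviations of the 44 members from their group means correlated at 0.29 to 0.78 between cultures of the same replicate number. They correlated at −0.87 to 0.08 between other pairs from different groups, a description over genes of shared libraries. Deviations cancel out within a group, so positive same-number values push the other pairs negative. Relative to the WT mean, the median of the 31 subunits of the 26S particle was −0.14, −0.08 and 0.23 in WT replicates 1 to 3, 0.28, −0.22 and 0.17 in HRD1 KO and 0.14, −0.19 and 0.19 in SEL1L KO, so that it was below 0 in every replicate 2 and above 0 in every replicate 3. PSME3, the nuclear PA28 gamma, was at 43.8, 55.7 and 55.6 FPKM in the replicate 1 cultures of WT, HRD1 KO and SEL1L KO, at 80.6, 74.0 and 60.3 in replicate 2 and at 120.5, 134.9 and 112.0 in replicate 3. The lid subunit PSMD12, chosen after its values were seen, was at 42.7, 33.8 and 62.9 in replicate 1 and 91.8, 107.2 and 84.0 in replicate 3. With the replicate as a block, 0 members were called in any of the 3 comparisons. In that fit 1 of 44 members, PSME2, passed an unadjusted p under 0.05 in HRD1 KO against WT (0.41, adjusted p = 0.784), against 3.10% of all genes as higher. PSME2 was higher in HRD1 KO than in the WT culture of the same number in each pair, at 70.5, 54.0 and 37.5 in WT and 105.3, 74.7 and 42.8 in HRD1 KO.

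Genes around the proteasome were examined as 4 further lists, the interferon genes above among them, and none of their genes was called in any comparison as fitted to all libraries. Of 13 genes of the NRF1 pathway, which control proteasome gene expression, 12 were tested in each table. Ngly1, the enzyme that removes N-glycans from ERAD substrates and from NRF1, was at 27.5, 23.3 and 26.4 FPKM in WT BAT, 13.1 and 12.9 in Hrd1 KO and 26.1, 16.6 and 17.6 in Sel1L KO, with a log2 fold change in Hrd1 KO against WT of −0.98 (SE 0.22, adjusted p = 0.0787) and of −0.60 against Sel1L KO (adjusted p = 0.447). Without the first Sel1L KO library, Ngly1 was again at −0.98 in Hrd1 KO against WT and passed the threshold by limma (adjusted p = 0.0076). In that fit 67 of 12473 genes were called lower and 113 higher, against 5 and 0 in the fit to all libraries. The value of Ngly1 against Sel1L KO was then −0.39. Without scaling it was −0.56 against WT. In HEK293T cells NGLY1 had a log2 fold change of −0.51 in HRD1 KO against WT and of −0.53 against SEL1L KO, both with an adjusted p of 1.00. Nfe2l2, which encodes NRF2, had a log2 fold change of 0.63 in Sel1L KO BAT (adjusted p = 0.146). The median of the NRF1 list was −0.09 in Hrd1 KO (0.34 without scaling and 0.03 with quantiles) and 0.14 in Sel1L KO BAT (−0.11 without its first library). The proteasome-bound factors (17 tested in BAT, including ubiquitin receptors and the ligase Ube3a) had medians of −0.03 and 0.04 there, and the 6 genes of ubiquitin and its activating enzyme −0.21 and 0.17. The Hrd1 KO medians were 0.40 and 0.21 without scaling and 0.04 and 0.08 with quantiles, and the Sel1L KO medians were −0.04 and −0.06 without the first Sel1L KO library, so no direction held for either list. Ube3a was lower in Hrd1 KO than in Sel1L KO BAT in every library (−0.67, adjusted p = 0.478). In HEK293T cells the medians of these 3 lists ran from −0.12 to 0.15 over both KO lines. The median of the interferon list (14 genes tested) was 0.24 in HRD1 KO and 0.18 in SEL1L KO. Beside NGLY1, the genes of the lists with the lowest p-values in these cells were NPLOC4 in HRD1 KO (−0.37) and VCP (0.27) and TAP1 (0.37) in SEL1L KO. Between the KO lines it was MAFG (−0.28).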

How the data were processed

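PolyA RNA-seq libraries were sequenced paired-end on 1 flow cell. The authors mapped reads to GRCh38 or GRCm38 with STAR 2.7.8a and estimated expression with RSEM 1.3.3 (FastQC 0.11.8 for quality), and deposited FPKM per gene, rounded to 2 decimals, in 1 table for HEK293T and 1 for BAT. FPKM holds no counts, so the authors' count test could not be repeated and absolute depth is unknown. Relative depth, estimated from the smallest steps of the values, varied 1.91 times among HEK293T and 1.61 times among BAT libraries. FPKM was scaled by the median ratio over tested genes, and log2(scaled FPKM + 0.1) was fitted with limma 3.58.1 (R 4.3.3, mean-variance trend), the 3 groups of a table in 1 model without a replicate block. Fold changes are on this scale, which understates those of low genes. Benjamini-Hochberg adjustment covered all genes with FPKM of at least 1 in 3 (HEK293T) or 2 (BAT) libraries, and calls used an adjusted p under 0.05 and 0.01. Procedures were tested on simulated data. Figures and sequence searches used Python 3.11.15. Gene coordinates came from annotations of the files' builds, which held all 49 genes of each species. Named genes were the targeted genes, the immunoproteasome and active-site subunits, POMP, PSMF1 and PSME1 to PSME4, the 4 members with the lowest p per comparison, the 3 highest and 3 lowest in WT, the untested members and 2 genes of the lists per comparison. The members and lists were chosen with earlier results of these data known. In HEK293T the replicate numbers paired the samples, since deviations from the group means correlated at 0.22 to 0.49 in all 9 same-number pairs. The 18 others were at −0.40 to 0.03, which adds little, because deviations cancel out within a group and positive same-number values push the others negative. In BAT the same-number correlations were −0.06 to 0.08. Within groups, libraries correlated at 0.87 to 0.95 on the log2 scale and shared at most 1.40% of values, so none was a duplicate. Alternatives were no scaling, quantile normalization, other pseudocounts, filters and thresholds, no trend, only the groups compared, a replicate block, and leaving out each library.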

Additional observations from a re-analysis of the deposited data

How the results depend on the processing

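No proteasome gene was called in any of the 111 combinations of a comparison and an alternative. The median over the members moved with the scaling in 2 comparisons, to 0.041 (Hrd1 KO against WT) and −0.055 (Hrd1 KO against Sel1L KO) in BAT without scaling, and by less than the spread between libraries in the other 103 such combinations. Of single genes, without scaling the log2 fold change in BAT turned to 0.28 for Psmb6, 0.0148 for Psmb5 and 0.24 for Psme1 in Hrd1 KO against WT, and to 0.0069 for Psmb6, 0.0106 for Psmb7 and 0.17 for Pomp against Sel1L KO. With quantile normalization it turned to 0.14 for Psmb6 and 0.076 for Psme1 (against WT) and 0.10 for Pomp (against Sel1L KO). Without scaling the median of all genes was itself 0.42 (Hrd1 KO against WT) and 0.30 (Hrd1 KO against Sel1L KO). Each unscaled value given here lay below that median. The cause of that shift of all genes was not tested. Leaving out 1 library gave ranges of −0.023 to 0.30 for PSMB10 in HRD1 KO cells, −0.37 to 0.10 for Psmb6 and −0.19 to 0.32 for Psmb10 in Hrd1 KO BAT, and −0.11 to 0.23 for Psmb5 and −0.24 to 0.35 for Psme2 in Sel1L KO BAT.

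With the replicate block, which fits the pairing in HEK293T, the genes called among all tested were 25 instead of 9 in HRD1 KO and 13 instead of 5 in SEL1L KO. In BAT, where the numbers do not pair the samples, Psmb10 turned to −0.10 with the block in Hrd1 KO against WT. With or without the block no member was called. At the unadjusted p it added PSME2 in HRD1 KO cells and moved the members lower in Hrd1 KO than in Sel1L KO BAT from 7 to 8.

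Without 1 library, genes called among all tested ranged from 1 to 19 (HRD1 KO), 1 to 9 (SEL1L KO) and 0 to 15 (between them) in HEK293T, and from 3 to 180, 1 to 29 and 2 to 7 in BAT, where the main counts were 5, 1 and 5. The counts that follow are of members at an unadjusted p under 0.05 by limma, with at least 2 libraries left in each group. Those lower ranged from 5 to 24 for Hrd1 KO against WT (7.27% and 15.6% of all genes at these ends). For Sel1L KO against WT they ranged from 0 to 8 (10.1% of all genes at 8). Between the KO tissues they reached 12, for which the share of all genes is not given here. Those higher against WT ranged from 0 to 2 for Hrd1 KO (14.0% of all genes at 2). For Sel1L KO they ranged from 1 to 5 (5.96% and 9.68% of all genes). The Hrd1 KO group had 2 tissues, and the members' median SE against WT was 0.23.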
